A study of Homo sapiens with 10 samples.

Results

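Knockout of 10 genes of oxidative stress defence, PARK7, GSTP1, GPX4, SOD1, SOD2, PRDX1, TXN, TXNRD1, KEAP1 and NFE2L2, was followed through a genome-wide CRISPR screen in 22Rv1 cells. The genes were taken by their symbols in the deposited table, which held all 10 of them among 18686 gene symbols. They were covered by 30 of the 55849 sgRNAs listed, 3 for each gene, and 29 of these were kept, having a mean of 20 counts or more. The sgRNA left out, HGLibB_20151 against GPX4, had a mean count of 2.70, so GPX4 was measured with 2 sgRNAs and every other gene with 3. 2 of the genes were in the group because of earlier results on these libraries. PARK7 ranked 5th of 18197 genes for depletion in parental cells between T0 and T12 and was also high in the difference between the arms. A single sgRNA of GSTP1 stood out as lower at T12 in the same parental comparison. Their values in those comparisons are therefore descriptions and carry no test, and the same applies to the other 8 genes there.

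22Rv1 is an established human prostate cancer cell line. The screen looked for knockouts that harm cells overexpressing MYCN, and compared the parental line with a derivative that overexpresses NMYC, the MYCN protein; the labels do not say how that derivative was made or whether it is a single clone. Both arms were infected with a lentiviral sgRNA library (lentiCRISPRv2_B, 65000 sgRNAs per the labels) at a multiplicity of infection of 0.3 and selected with puromycin, and so all cells carry an sgRNA cassette and its nuclease. Each arm gave 1 library at T0, after selection, and 2 libraries at T6 and at T12, from duplicate cultures plated after that infection. The labels do not say whether T6 and T12 count days, passages or generations; they speak of passages every 72 hours over 12 generations. The libraries were amplicons of genomic DNA, so no marker of the cell line or level of MYCN could be read from them.

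Cells make superoxide and hydrogen peroxide as by-products of respiration. Superoxide dismutases turn superoxide into hydrogen peroxide, which peroxiredoxins and glutathione peroxidases reduce with electrons from thioredoxin and glutathione, while glutathione S-transferases couple glutathione to reactive compounds. The transcription factor NRF2, the product of NFE2L2, switches on many of these enzymes and is held down by KEAP1, an adaptor that directs its ubiquitination by a CUL3 ligase. PARK7 (DJ-1) is a small protein with a reactive cysteine that protects cells from oxidative stress, and its loss causes a recessive form of Parkinson's disease. In a knockout screen an sgRNA against a gene needed for growth becomes rarer over time, and an sgRNA against a gene that restrains growth becomes more frequent.

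Libraries held 8783512 to 18398571 counts, with a median of 50 to 187 counts per sgRNA and 2.98% to 9.15% of the sgRNAs at 0. Replicate cultures correlated at Spearman 0.396 to 0.533 over sgRNAs in 4 pairs, and libraries of different arms at 0.369 to 0.546 in 25 pairs. PCR reads without molecular identifiers are not independent molecules, and depth speaks for counting error alone. Both cultures of an arm come from a single infection, so p-values measure the spread that arose after it. With edgeR's quasi-likelihood test and rank aggregation over sgRNAs, 0 of 18197 genes passed an adjusted p of 0.05 in any of the 7 comparisons made, in either direction. At an unadjusted p under 0.05 between 869 and 932 genes did so per direction and comparison, which is 4.78% to 5.12% of all genes; DESeq2 p-values also gave 0 genes, and an edgeR test on summed counts gave 1, DNMBP, named after its values were seen, in NMYC cells between T0 and T12. None of the differences below is therefore a call.

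Levels are given in CPM (counts scaled by the TMM-adjusted library size) summed over the kept sgRNAs of a gene. A log2 value compares group means of these sums, each plus 0.5 CPM, less the median of the same quantity over all 18197 genes. Its SD is the spread between the 2 cultures of each T6 or T12 group on that log2 scale. T0 has a single library per arm and adds no spread to it, so the SD understates the error of a comparison with T0.

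**Figure D1:**
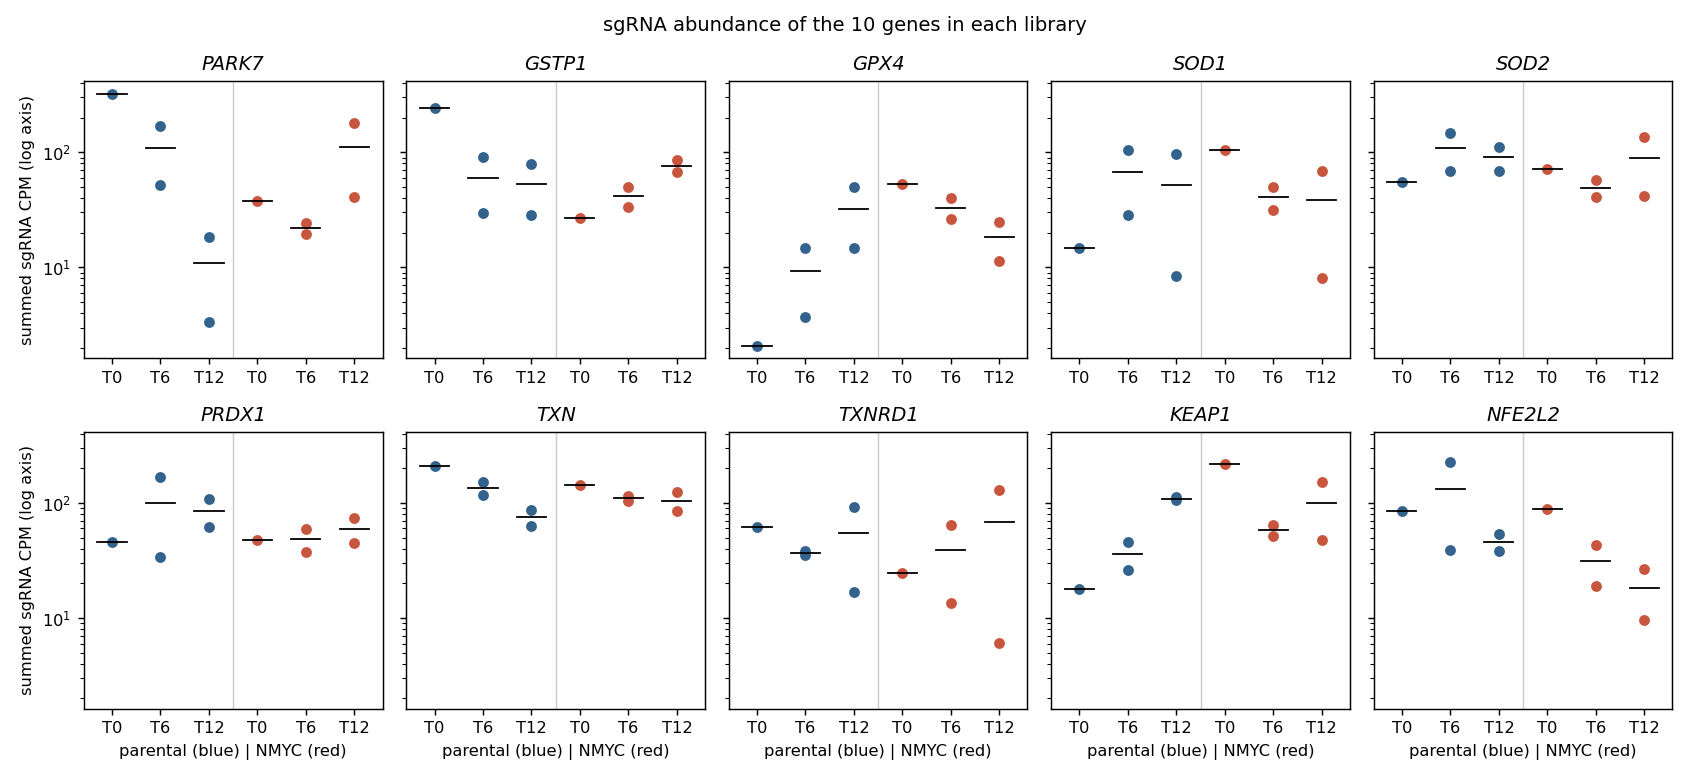
Summed sgRNA CPM (log axis) of the 10 genes in the 10 libraries, parental in blue and NMYC in red, with 1 point per library and a bar at the group mean (n = 1 at T0, n = 2 at T6 and T12). PARK7 runs from 323 CPM at parental T0 down to 3.36 CPM at parental T12, while TXN stays between 63.5 and 210 CPM.

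The summed level of the PARK7 sgRNAs was high in the parental T0 library and low in both parental T12 libraries, and in NMYC cells it had no such course. In parental cells the sum was 323 CPM at T0, 52.0 and 168 CPM at T6, and 3.36 and 18.3 CPM at T12. In NMYC cells it was 37.7 CPM at T0, 19.5 and 24.2 CPM at T6, and 40.9 and 181 CPM at T12. By group mean PARK7 was thus lower in parental than in NMYC cells at T12, at 10.8 against 111 CPM, on libraries it was chosen on. At T6 the mean was higher in parental cells, at 110 against 21.9 CPM. Over the 4 later libraries of each arm the PARK7 levels overlapped. The parental T0 level stood at the 99.3th percentile of all genes in that library, and the parental T12 levels at the 5.64th and 21.8th. The log2 value between T0 and T12 was -4.74 in parental cells (SD 1.62, n = 2) and 1.52 in NMYC cells (SD 1.51, n = 2).

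The 3 sgRNAs of PARK7 shared the parental course and differed in NMYC cells. HGLibB_35152 started at parental T0 with 1316 counts, with 26 and 373 in the T6 libraries and 5 and 0 in the T12 libraries; in NMYC cells it had 0 at T0, 0 and 2 at T6, then 1 and 855 at T12. HGLibB_35153 started with 2740 counts, with 824 and 795 later at T6 and 39 and 289 at T12; in NMYC cells it had 422, then 347 and 203, then 164 and 602. HGLibB_35154 started with 276 counts, with 60 and 2 later at T6 and 8 and 6 at T12; in NMYC cells it had 64, then 33 and 99, then 461 and 1056. All 3 sgRNAs were below the median gene in parental cells at T12, a pattern of 8.92% of all genes, and PARK7 was the only one of the 10 genes with it. At parental T6 they were also all below it, as for 7.61% of all genes. The high NMYC level at T12 rests on NMYC T12 replicate 2: without that library the log2 value in NMYC cells was 0.37. With the mean of both T0 libraries as the baseline it was -0.44 in NMYC and -3.78 in parental cells.

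The T6 libraries were not used to choose PARK7, and there the arms were tested. That test is still not independent of the choice. The T6 libraries come from the same infections as T0 and the same cultures as T12. At T0 the level was already lower in NMYC than in parental cells, at 37.7 against 323 CPM. PARK7 was lower in NMYC than in parental cells at T6, with a log2 value of -2.10 (SD 1.21, n = 2 against 2), an unadjusted p of 0.00228 and an adjusted p of 0.835 (edgeR with rank aggregation), which did not pass. The sgRNAs were mixed, with log2 changes of -5.59 for HGLibB_35152, -2.21 for HGLibB_35153 and 1.17 for HGLibB_35154. The gene value was -1.31 without parental T6 replicate 2 and -2.64 without replicate 1. PARK7 was the single gene of the 10 past 4-fold lower in that comparison, where 2.26% of all genes were, and it was not past 4-fold with size factors from non-targeting sgRNAs (-1.91), with a pseudocount of 5 CPM (-1.91), or without parental T6 replicate 2 or NMYC T6 replicate 1 (-1.86). Over the alternatives the adjusted p ran from 0.779 to 0.994. The direction at T6 is the opposite of that at T12, where the log2 value of NMYC against parental was 3.37 (SD 2.21), given without a test because PARK7 was chosen on those libraries, and 2.21 without NMYC T12 replicate 2.

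**Figure D2:**
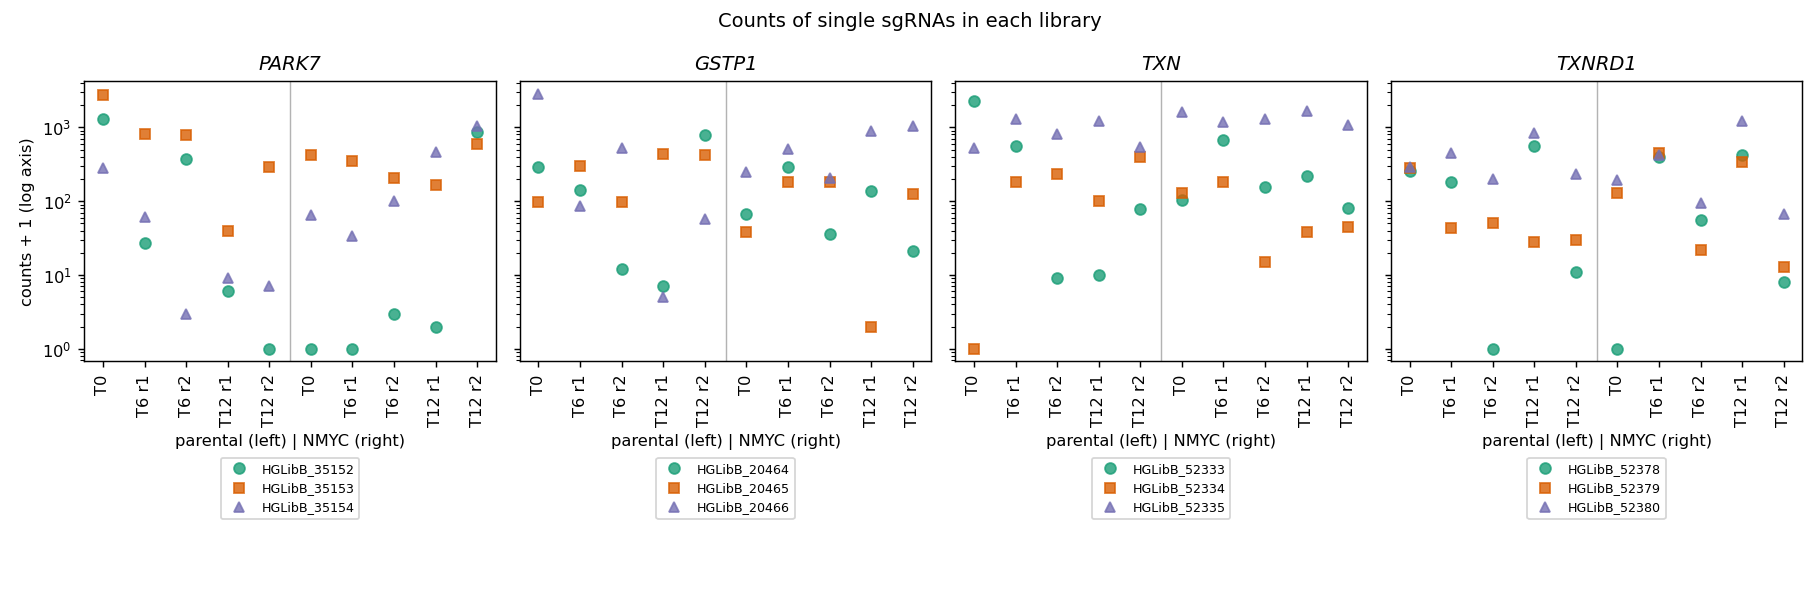
Counts plus 1 (log axis) of the 3 sgRNAs against PARK7, GSTP1, TXN and TXNRD1 in each of the 10 libraries, parental left and NMYC right of the grey line. The PARK7 sgRNAs lie between 276 and 2740 counts at parental T0 and between 0 and 289 at parental T12.

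Non-targeting sgRNAs, which cut no intended gene, showed how a starting level moves with a later change. Of 88 non-targeting sgRNAs with at least 1000 counts at parental T0, 86 were lower at T12, with a median log2 change of -2.25 and quartiles of -4.03 and -1.50. The 106 with 200 to 400 counts at T0 had a median of 0.18 and a lower quartile of -1.69, and the 306 with under 25 counts had a median of 2.83. NMYC cells gave -2.12, 0.09 and 2.34 for the same classes, with 61, 134 and 209 sgRNAs; the classes were set after the data were seen. The log2 changes of the PARK7 sgRNAs from parental T0 to T12 were -7.22 and -4.26 for the pair with over 1000 counts at T0 and -4.48 for HGLibB_35154. All 3 lay below the lower quartile of the controls in their class and below the 5th percentile of all 934 kept controls, -3.79. PARK7 was chosen for its depletion in this same comparison, while the controls were not chosen. A low place among them was therefore set by that choice and is no evidence of its own. The part that the T0 level plays in the PARK7 result was not tested.

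**Figure D3:**
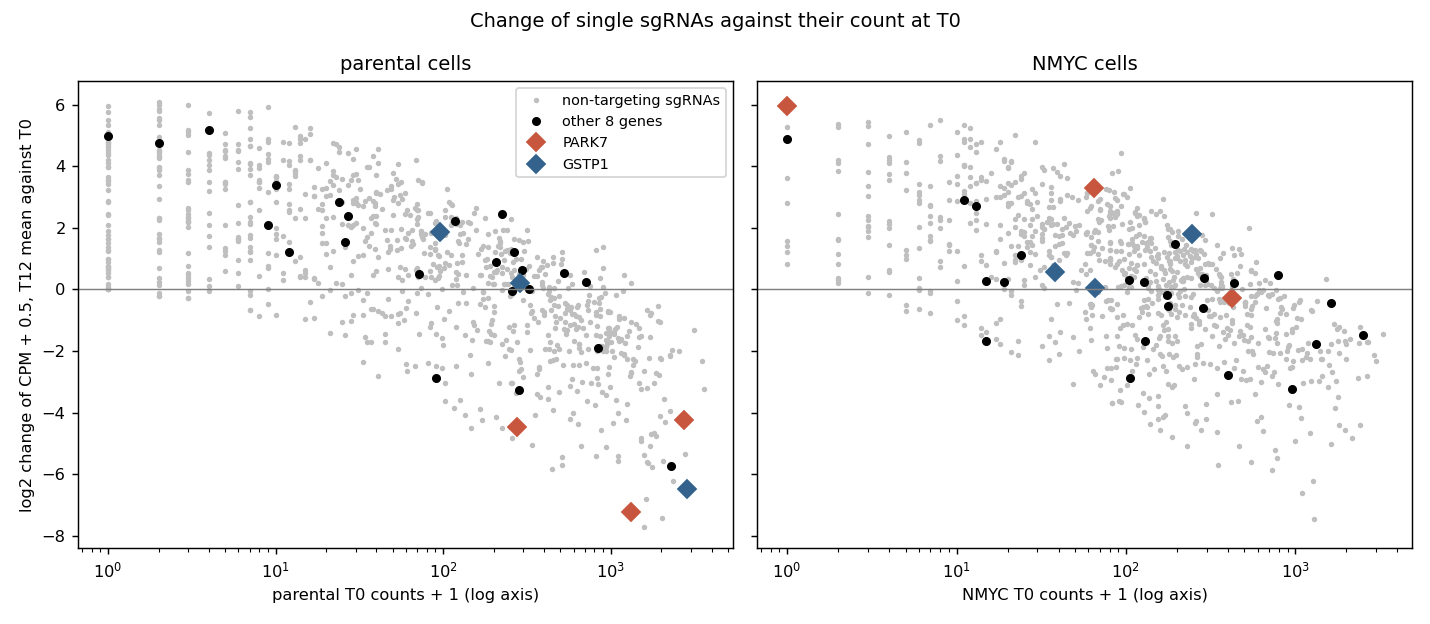
Log2 change of CPM plus 0.5 from T0 to the T12 mean for single sgRNAs against their T0 count plus 1 (log axis), in parental (left) and NMYC cells (right). Grey points are the 934 non-targeting sgRNAs, which slope downward in both arms; coloured diamonds are PARK7 and GSTP1 and black points the other 8 genes.

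GSTP1 encodes the pi-class glutathione S-transferase, whose promoter is commonly methylated in prostate cancer. Its sum was 241 CPM at parental T0, 29.8 and 90.9 at T6, then 28.3 and 78.8 at T12. NMYC cells had 26.9 CPM at T0, 49.7 and 33.7 at T6, then 67.6 and 85.8 at T12. The parental T0 library alone stood high, and the levels of the arms overlapped at T6 and at T12. HGLibB_20466, the sgRNA that had been picked out, started with 2848 parental counts, with 86 and 526 later at T6 and 4 and 56 at T12. The other sgRNAs did not share this course: HGLibB_20465 had 95 counts at T0 and 428 and 423 at T12, and HGLibB_20464 had 285 at T0 and 6 and 789 at T12. The parental log2 value of -2.06 (SD 1.03, n = 2) therefore followed a single sgRNA, and with the median over sgRNAs it was -0.25. In NMYC cells all 3 sgRNAs were above the median gene at T12, with a log2 value of 1.47 (SD 0.24, n = 2; unadjusted p = 0.400, adjusted p = 1 by edgeR with rank aggregation), and -0.54 against the mean of both T0 libraries. The log2 changes were 1.79 for HGLibB_20466, 0.58 for HGLibB_20465 and 0.04 for HGLibB_20464, against a median over genes of 0.03. HGLibB_20464 was thus barely above the median gene, and HGLibB_20465 had 1 and 125 counts at T12. The value of the sum largely followed HGLibB_20466 here too. A place of all sgRNAs above the median gene was shared by TXNRD1 and by 17.4% of all genes, and at NMYC T6 by the same pair and 23.1%.

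GPX4 encodes the glutathione peroxidase that reduces lipid hydroperoxides and protects cells from ferroptosis. Its 2 sgRNAs summed to 2.09 CPM at parental T0, 14.7 and 3.73 at T6, then 49.4 and 14.8 at T12. In NMYC cells they summed to 52.9 CPM at T0, 26.1 and 39.9 at T6, then 25 and 11.5 at T12. The parental T0 level rested on 25 and 3 counts, so the parental log2 value of 3.75 (SD 1.20) rests on few T0 counts. Against the mean of both T0 libraries it was 0.44. At T6 GPX4 was higher in NMYC than in parental cells, with a log2 value of 1.99 (SD 1.38; unadjusted p = 0.0313, adjusted p = 0.947 by edgeR with rank aggregation). It was 1.06 without parental T6 replicate 2 and 3.25 without replicate 1. At T12 the order was not kept, at -0.73 (SD 1.43; adjusted p = 0.987 by the same test), and the value was 0.23 without parental T12 replicate 1.

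SOD1 encodes the copper-zinc superoxide dismutase of the cytosol and SOD2 the manganese enzyme of mitochondria. SOD1 had 14.9 CPM at parental T0, 28.6 and 105 at T6, then 8.46 and 96.2 at T12. In NMYC cells it had 104 CPM at T0, 50 and 31.8 at T6, then 68.8 and 8.00 at T12. The cultures at T12 lay far apart in each arm, and the parental log2 value of 1.88 (SD 2.43) was -0.53 without parental T12 replicate 2. In NMYC cells its log2 value was -1.46 (SD 2.14; unadjusted p = 0.0973, adjusted p = 0.983 by edgeR with rank aggregation), -0.34 without NMYC T12 replicate 2 and -3.62 without replicate 1.

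SOD2 had the 2nd narrowest range of the 10 genes after TXN. It had 55.2 CPM at parental T0, 68.2 and 148 at T6, 69.3 and 111 at T12, and in NMYC cells 71.1 at T0, 40.8 and 57.2 at T6, 42.1 and 137 at T12. Its highest library held 3.63 times the level of its lowest, a range at the 4.91th percentile of all genes. The sum hid unequal sgRNAs: HGLibB_46090 kept 467 to 1869 counts in the 10 libraries, while HGLibB_46091 had 1 count at parental T0 and 122 and 558 at T6. All 3 sgRNAs were below the median gene in NMYC against parental cells at T6, with a log2 value of -0.93 (SD 0.86; adjusted p = 0.989 by edgeR with rank aggregation), and -0.55 without parental T6 replicate 2. NFE2L2 and PRDX1 shared this pattern, as did 10.9% of all genes.

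PRDX1, TXN and TXNRD1 form a chain in which thioredoxin reductase reduces thioredoxin and thioredoxin reduces the peroxiredoxin. PRDX1 had 45.5 CPM at parental T0, 34.1 and 167 at T6, then 108 and 62.2 at T12. NMYC cells had 47.9 CPM at T0, 59.6 and 37.7 at T6, then 44.6 and 73.3 at T12. The T0 libraries differed by 1.05-fold, and the largest departure was a single library, parental T6 replicate 2. Its log2 values against T0 at T12 were 1.00 in parental (SD 0.56) and 0.27 in NMYC cells (SD 0.50; adjusted p = 1 by edgeR with rank aggregation).

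TXN had the narrowest range, 63.5 to 210 CPM, or 3.30-fold, at the 3.15th percentile of all genes. It had 210 CPM at parental T0, 116 and 152 at T6, then 86.0 and 63.5 at T12. In NMYC cells it had 144 CPM at T0, 104 and 116 at T6, then 124 and 85.5 at T12. HGLibB_52335 had 526 to 1644 counts in the 10 libraries and made up most of the sum outside parental T0. In the parental T0 library HGLibB_52333 held 170 CPM and HGLibB_52335 39.3 CPM of the 210. From parental T0 to T12 the log2 change was -5.73 for HGLibB_52333 and 0.52 for HGLibB_52335. HGLibB_52333 had 2283 counts at parental T0 and 9 and 78 at T12, while HGLibB_52334 had 0 at T0 and 98 and 396 at T12, so these 2 sgRNAs of TXN went opposite ways. The log2 value was -1.39 in parental cells (SD 0.31) and 0.06 by the median over sgRNAs; in NMYC cells it was -0.49 (SD 0.38; adjusted p = 1 by edgeR with rank aggregation), and 0.03 without NMYC T12 replicate 2.

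TXNRD1, the cytosolic thioredoxin reductase, differed between the 2 NMYC cultures more than between arms or times. In NMYC cells the sum was 24.8 CPM at T0, 64.9 and 13.5 at T6, then 130 and 6.06 at T12, with replicate 1 the higher culture both times. HGLibB_52378 had 396 and 54 counts at NMYC T6 and 425 and 7 at T12, HGLibB_52379 had 444 and 21, then 342 and 12, and HGLibB_52380 had 423 and 94, then 1227 and 65. All 3 sgRNAs were thus higher in the same culture at both times, with a sum over 4-fold higher, a combination found for 0.352% of all genes and described after it was seen. In parental cells the sum was 62.2 CPM at T0, 38.4 and 35.6 at T6, then 92.5 and 16.8 at T12, again with replicate 1 higher both times but close at T6.

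The test in NMYC cells gave TXNRD1 the smallest p of the 9 tested genes of oxidative stress defence between T6 and T0, at rank 66 of all 18197 genes for enrichment. Its log2 value there was 0.88 (SD 1.57; unadjusted p = 0.00371, adjusted p = 0.931 by edgeR with rank aggregation). HGLibB_52378 had 0 counts at NMYC T0, and without NMYC T6 replicate 1 the value was -0.53. Between T12 and T0 it was 1.41 (SD 3.05; unadjusted p = 0.0176, adjusted p = 0.959), and -1.95 without NMYC T12 replicate 1.

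KEAP1 and NFE2L2 act against each other, the first restraining NRF2 and the second encoding it. KEAP1 had 18.0 CPM at parental T0, 46.0 and 26.2 at T6, then 106 and 112 at T12. NMYC cells had 219 CPM at T0, 64.2 and 52.0 at T6, then 47.7 and 152 at T12. The T0 libraries were 11.9-fold apart, and at T12 the log2 value of NMYC against parental was -0.05 (SD 1.18; adjusted p = 1 by edgeR with rank aggregation). All 3 KEAP1 sgRNAs were above the median gene at parental T12, as for 22.4% of all genes, with 8, 9 and 224 counts at T0. The log2 value was 2.66 (SD 0.06) there, and 0.10 against the mean of both T0 libraries; in NMYC cells it was -1.15 (SD 1.18; adjusted p = 1 by the same test), -1.93 without NMYC T12 replicate 2 and -0.52 without replicate 1.

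NFE2L2 had 84.9 CPM at parental T0, 39.1 and 228 at T6, then 54.0 and 38.1 at T12. In NMYC cells it had 88.8 CPM at T0, 19.1 and 43.1 at T6, then 26.6 and 9.59 at T12. The T0 libraries differed by 1.05-fold, and the mean at T12 was 18.1 CPM in NMYC and 46.1 CPM in parental cells. Over all T6 and T12 libraries the levels of the arms overlapped. NFE2L2 was the single gene of the 10 past 4-fold lower between T12 and T0 in NMYC cells, where 8.9% of all genes were. Its log2 value was -2.29 (SD 1.01; unadjusted p = 0.139, adjusted p = 0.983 by edgeR with rank aggregation). It kept its sign in all 18 alternatives, from -3.14 to -0.72, the last by the median over sgRNAs. The sgRNAs were mixed, with log2 changes from NMYC T0 to T12 of -3.24 for HGLibB_31751, -0.53 for HGLibB_31750 and 0.27 for HGLibB_31752. The value of the sum therefore largely followed HGLibB_31751. HGLibB_31751 was the most abundant of the 3 at NMYC T0 and T6, with 954 counts at NMYC T0, 302 and 329 at T6, then 179 and 42 at T12, while HGLibB_31752 had 14, then 2 and 117, then 39 and 4. In NMYC against parental cells the log2 value was -1.88 at T6 (SD 1.96; adjusted p = 0.989) and -1.26 at T12 (SD 1.07; adjusted p = 0.984), both by edgeR with rank aggregation. The T6 value was -0.40 without parental T6 replicate 2 and -2.58 without replicate 1, and the T12 value -0.44 without NMYC T12 replicate 2 and -2.19 without replicate 1.

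**Figure D4:**
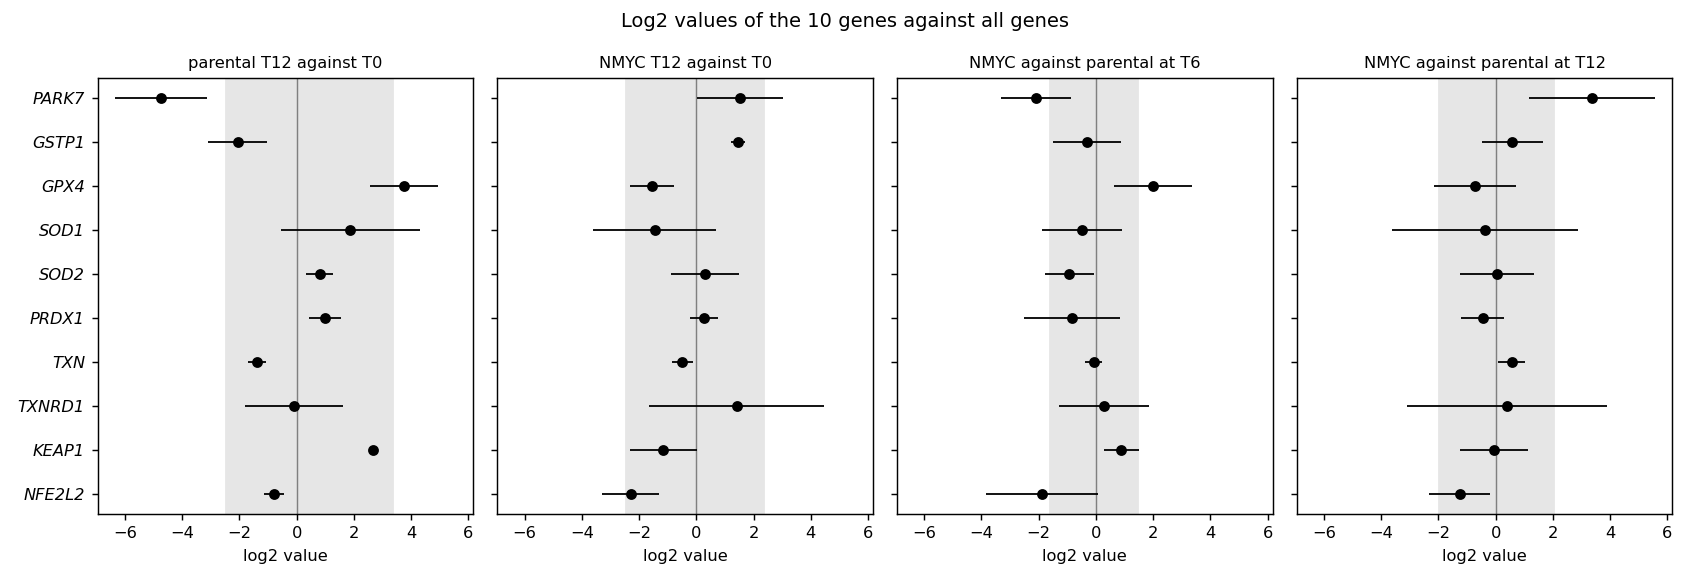
Log2 values of the 10 genes (relative to the median gene) in 4 comparisons, with bars of 1 SD between cultures. The grey band holds the 5th to 95th percentile of all genes; PARK7 lies outside it in parental cells (-4.74) and in NMYC against parental cells at T6 (-2.10) and T12 (3.37), on opposite sides at T6 and T12, GPX4 in parental cells (3.75) and at T6 (1.99), and NFE2L2 at T6 (-1.88).

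At T0, 5 of the 10 genes differed over 4-fold between the T0 libraries, GSTP1 and PARK7 lower and GPX4, KEAP1 and SOD1 higher in NMYC cells, against 29.7% of all genes. At T6 and T12 the levels of the arms overlapped for all 10 genes over the 4 later libraries of each arm, and they did not overlap for 3.56% of all genes. The difference between arms in the change from T0 to T12 had log2 values of 6.36 for PARK7 (SD 2.21), 3.64 for GSTP1 (SD 1.06), -5.18 for GPX4 (SD 1.43), -3.71 for KEAP1 (SD 1.18) and -3.23 for SOD1 (SD 3.24). These are the 5 genes whose T0 libraries were over 4-fold apart, in each case on the opposite side, and the T0 libraries enter this value. Past 4-fold in this difference lay 3 of 10 genes lower (18.7% of all genes) and 2 of 10 higher (17.7%); the other 5 genes ran from -1.41 for NFE2L2 to 1.61 for TXNRD1.

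The median log2 value of the 10 genes was 0.36 in parental and -0.11 in NMYC cells between T0 and T12, and 1.01 in parental and -0.37 in NMYC cells between T0 and T6. It was -0.51 for the difference between arms in the change to T12, -0.41 in NMYC against parental cells at T6 and 0.00 at T12. Over all genes that median is 0 by construction, and the median size of a log2 value lay between 0.62 and 1.48 in the 7 comparisons. In parental cells 2 genes were past 4-fold lower, PARK7 and GSTP1 (8.9% of all genes), and 2 higher, GPX4 and KEAP1 (15.2%). In NMYC cells 1 was lower (8.9%) and 0 were higher (7.89%). From T0 to T6 0 were lower (8.83%) and 2, GPX4 and SOD1, higher (15%) in parental cells, and 0 were past 4-fold either way in NMYC cells (6.46% lower, 5.73% higher). In NMYC cells against T0 PARK7 was left untested. Of the other genes, TXNRD1 had an unadjusted p under 0.05 (edgeR with rank aggregation) on the enriched side at T12 (5.07% of all genes) and T6 (4.96%). On the depleted side there were 0 at T12 (5.02%) and at T6 (5.12%). Between the arms at T12, where PARK7 and GSTP1 were left untested, no tested gene was on either side (5.11% depleted, 4.89% enriched). Between the arms at T6 PARK7 was on the depleted side (4.97%) and GPX4 on the enriched side (5.11%). In the comparisons given without a test, which all include the parental T0 library, the background was 5.11% depleted and 4.85% enriched in parental cells at T12, 5.01% and 4.88% at T6, and 4.78% and 4.85% for the difference between arms. A gene's most abundant sgRNA held a median of 56.4% (PRDX1) to 84.0% (TXN) of its sum over the libraries, against 69.0% for all genes. Of the 300 counts of the 30 sgRNAs 15 were 0, or 5%, against 5.94% of all counts in the table, and 6 of the 15 belonged to the GPX4 sgRNA left out.

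A further list of 93 oxidative stress genes, of which 89 were tested, gave 0 genes past an adjusted p of 0.05 in either direction in each comparison. It does not include PARK7, GSTP1 or TXNRD1. In NMYC cells between T0 and T12, 4 of 89 were depleted at an unadjusted p under 0.05 (4.49%, against 5.02% of all genes) and 5 enriched (5.62% against 5.07%), by edgeR with rank aggregation. Past 4-fold lay 10 lower (11.2% against 8.9%) and 7 higher (7.87% against 7.89%), and the median log2 value was -0.04. The 11 groups of the list had medians between -0.62, for ferroptosis control, and 0.61, for glutathione S-transferases. In the NRF2 target and NADPH supply group 9 of 13 genes were below the median gene, with a group median of -0.17. At NMYC T6 6 of 13 were, with a group median of 0.11. In the KEAP1 and NRF2 control group 5 of 10 were below it at both times, against 50% of all genes by construction. The latter group holds neither KEAP1 nor NFE2L2.

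Among list genes with 3 sgRNAs, TKT, SLC3A2, MSRA and GPX8 had the smallest depletion p in NMYC cells. TKT, the transketolase of the pentose phosphate pathway, had 379 CPM at NMYC T0 and 50.5 and 89.9 CPM at T12 with all 3 sgRNAs lower (log2 value -2.45, adjusted p = 0.939). SLC3A2, a chain of the cystine importer with SLC7A11, had 147 CPM at T0 and 4.58 and 15.7 at T12 (-3.82, adjusted p = 0.939); in parental cells it had 2.76 CPM at T0 and 66.0 and 64.7 at T12. MSRA, a methionine sulfoxide reductase, had a log2 value of -2.13 and GPX8, a glutathione peroxidase of the endoplasmic reticulum, of -2.69 (adjusted p = 0.955 and 0.963 by edgeR with rank aggregation, as for the others). On the enriched side were GPX2 at 2.20, MGST2 at 3.0, the heme oxygenase gene HMOX1 at 1.67 and ACSL4, which feeds polyunsaturated lipids into ferroptosis, at 0.28, with adjusted p from 0.959 to 0.961. MGST2, a microsomal glutathione S-transferase, had 7.30 CPM at NMYC T0 and 64.4 and 61.9 at T12. All sgRNAs lay on the same side of the median gene for TKT, SLC3A2, GPX8 and GPX2, and they were mixed for MSRA, MGST2, HMOX1 and ACSL4. Parental log2 values between T0 and T12 were -0.86 for TKT, 4.43 for SLC3A2, 2.77 for MSRA and -3.21 for GPX8. They were 0.31 for GPX2, -1.78 for MGST2, -1.77 for HMOX1 and 0.97 for ACSL4.

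The genes whose levels followed PARK7 most closely over the 10 libraries were OTUB2 (Pearson r = 0.961), RND2 (0.957), OR1J1 (0.944), KIAA0895 (0.944) and ARHGAP24 (0.943), on log2 of the sum plus 0.5 CPM. They were chosen as the top 5 of 15247 genes with 3 sgRNAs, of which 1.27% had r over 0.8, and all libraries share the same counts, so r is a description. Each was high in the parental T0 library, with 119 CPM for the deubiquitinase gene OTUB2, 223 for RND2 and 163 for the olfactory receptor gene OR1J1. Each was also low in parental T12 replicate 1, at 0.58 CPM for OTUB2, 30.2 for RND2 and 4.65 for OR1J1. Among the 8 other genes of oxidative stress defence with 3 sgRNAs, r with PARK7 ran from -0.47 for KEAP1 to 0.72 for GSTP1.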

How the data were processed

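The authors deposited unnormalized counts, whole numbers for each sgRNA in 10 libraries. Per the submitters' processing notes MAGeCK was used, with no version; no source used here gives the trimming, mismatches, sgRNA reference or any earlier filter. All 10 columns matched a sample by name. The table gives no sgRNA sequences and no genome build, so no coordinates are printed.

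sgRNAs with a mean count of at least 20 were kept (53040 of 55849, with 934 of 989 non-targeting controls). The sgRNA test was edgeR 4.0.16 under R 4.3.3 (TMM, quasi-likelihood, 6 group means over all 10 libraries, 4 residual degrees of freedom, common dispersion 1.11). All libraries entered 1 fit because each T0 has 1 library, assumed to vary like the others. Robust rank aggregation gave gene p-values for genes with at least 2 kept sgRNAs (18197). It used an exact null and Benjamini-Hochberg adjustment over all genes in each direction at 0.05. The script was tested on simulated data, with limits on recovered genes and false calls only at a dispersion far below 1.11. How many true changes it recovers at the dispersion of these data is not given here. Each gene is given in the direction of its smaller p, which weighs sgRNAs alike and can differ in sign from the log2 value of sums.

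Named genes were the 10 members, the 4 lowest p per direction of the further list in NMYC cells between T0 and T12, and the 5 genes most like PARK7. Members and lists were chosen with earlier results of these data known. Same-numbered T6 and T12 libraries come from the same culture per the labels' protocols; their deviations correlated at 0.07 in parental and -0.01 in NMYC cells over sgRNAs. The alternatives were other size factors (median of ratios, non-targeting sgRNAs), no filter or a mean count of at least 50, DESeq2 1.42.0 p-values, summed counts, the replicate block, the compared libraries alone, each library left out, another pseudocount, a shared T0 baseline and the median over sgRNAs.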

Additional observations from a re-analysis of the deposited data

Results flagged for a closer look

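For several genes both parental cultures lay on one side of their T0 library and both NMYC cultures on the other side of theirs. Values are the mean log2 difference, NMYC minus parental, and none of these differences was tested. From T0 to T12 these were PARK7 at 6.43, GSTP1 at 3.82, GPX4 at -5.03 and KEAP1 at -3.92, which is 4 of 10 genes against 24.4% of all genes. From T0 to T6 they were GSTP1 at 2.80, GPX4 at -2.33, SOD1 at -3.23, SOD2 at -1.41 and KEAP1 at -2.84, which is 5 of 10 against 27.4%. PARK7 and GSTP1 were chosen on the first of these changes. Of the 6 genes, all but SOD2 had T0 libraries over 4-fold apart; SOD2 had 1.28-fold. With the mean of both T0 libraries as baseline the T12 difference was 3.37 for PARK7, -0.73 for GPX4 and -0.05 for KEAP1.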

How the results depend on the processing

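The count of genes called was 0 in every comparison and stayed 0 in 114 of 120 recomputations. It was 1 in NMYC cells between T0 and T12 with the edgeR test on summed counts (DNMBP) and with the compared libraries alone (GRHL1). With a library left out it ran from 0 to 1 there (GRHL1 without parental T0 or parental T12 replicate 2), between parental T0 and T12 (SNRNP70 without parental T12 replicate 1) and between the arms at T12 (DEFB129 without NMYC T12 replicate 2). The replicate block, which pairs cultures by number, gave 0 genes in each of the 7 comparisons and changed no call. The further list's median moved beyond its spread as follows. With size factors from non-targeting sgRNAs it was 0.19 in parental cells at T6 and -0.0789 between arms at T6. Without a filter the parental T6 median was 0.25; with a mean count of at least 50 it was 0.13 in NMYC cells at T6 and -0.0762 between arms at T6. With a shared T0 baseline it was -0.059 for the difference between arms and -0.00225 in parental cells at T6. By the median over sgRNAs it was -0.28 in NMYC cells at T12, -0.027 for the difference, 0.19 in parental and 0.16 in NMYC cells at T6. Non-targeting medians under median-of-ratios factors were 0.58 and 0.34 in NMYC cells at T12 and T6, -0.10 for the difference and 0.077 between arms at T12. The cause of these shifts was not tested. With 1 library left out, list medians ran from -0.039 to 0.18 in NMYC cells at T12, -0.017 to 0.17 at T6, 0.10 to 0.26 in parental cells at T6, -0.0790 to 0.14 between arms at T6, -0.45 to -0.013 for the difference, -0.16 to 0.38 in parental cells at T12 and -0.14 to 0.070 between arms at T12; all but the parental T6 and difference ranges include both signs. Of the recomputed values of the 10 genes, 1185 stayed within 1 SD and 65 did not. Of their recomputed counts past 4-fold, 214 were within 1.5 times the reported count and 36 were not; between arms at T6 the lower count ran from 0 to 2. Depth limits single sgRNAs, with a median of 50 to 187 counts per library.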
